A study of Mus musculus with 9 samples.

Results

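Loss of beta-catenin and inhibition of Ezh2 were set against each other gene by gene in mouse mesenchymal stem cells, the multipotent stromal cells of bone marrow that can form bone, cartilage and fat. The comparison used every gene that passed a filter on low counts, 13240 of the 23358 entries of the gene count table, in 3 libraries of cells with beta-catenin siRNA and 3 libraries of cells with the Ezh2 inhibitor GSK126. The other 10118 entries were below the filter and were not tested. A positive log2 fold change means a higher level with beta-catenin siRNA than with GSK126. Levels are CPM, counts as a share of the scaled library total, and fold changes carry their standard error (log2 ± SE).

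Beta-catenin, the product of Ctnnb1, joins cadherins to the actin cytoskeleton at cell contacts. When Wnt ligands bind Frizzled and Lrp receptors it escapes degradation and activates genes together with Tcf and Lef factors in the nucleus. Ezh2 is the catalytic subunit of Polycomb repressive complex 2 (PRC2), which methylates histone H3 on lysine 27 at genes that are kept silent, and GSK126 competes with its methyl donor. In marrow stroma, Wnt signalling is known to favour bone over fat formation.

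The cells came from the marrow of adult C57BL/6 mice, were at passages 4 to 10 and were grown in osteogenic medium with ascorbic acid and beta-glycerophosphate. siRNA or inhibitor was added 1 day after plating, and the cells were lysed on day 4. The group called siBcat here received beta-catenin siRNA, and the group called GSK126 received a non-targeting siRNA with 5 µM GSK126. Cultures with the non-targeting siRNA alone (siCTL, 3 libraries) gave the reference level. The siBcat and GSK126 cultures therefore differ in the siRNA and in the inhibitor, and no vehicle is named for siBcat or siCTL. By its titles, source names and count columns siBcat had no inhibitor, but 5 µM GSK126 appears in its treatment label. Groups follow the titles. The count table also has columns named for both agents together, which were not used here. Mest, Plin1 and Cd36, picked after their values were seen, differed from siCTL by 3.003 ± 0.10, 4.48 ± 0.21 and 5.37 ± 0.29 on the log2 scale in GSK126 and by 0.23 ± 0.10, -0.27 ± 0.30 and 0.49 ± 0.46 in siBcat (siBcat adjusted p = 0.104, 0.508 and 0.439). Other genes, among them Fst, Nxph2, Fap and Gpr126 described below, changed alike in both groups. Whether the siBcat cultures had the inhibitor was not tested. The siRNA sequence is not given in the sources used here. Replicates are called biological, but whether they came from separate mice is not stated, so p-values measure the spread between these cultures.

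With edgeR's quasi-likelihood test and a Benjamini-Hochberg adjusted p under 0.05 (called below), beta-catenin siRNA gave 2549 higher (19.3%) and 2901 lower genes (21.9%) than GSK126, 41.2% of the genes tested. The counts of each gene list below are to be read against these shares. In 52.5% of the genes no siBcat library fell within the GSK126 range or the reverse, with siBcat higher in 25.3% and lower in 27.2%. A change of at least 2-fold was seen in 239 of the genes called higher and 558 of those called lower, and of at least 4-fold in 49 and 139. The median called gene differed by 0.41 on the log2 scale, against a median SE over all genes of 0.087, so most calls were small differences that the close replicates resolved. The median of all genes was -0.01. The share of calls that were higher was 46.8%. It moved to 33.3% with scaling by library size only and to 63.2% when a trend on coding length was removed from every library. The median of all genes was -0.08 and 0.07 in these settings. Removing the trend also took out the overall level of each library, on top of the scaling. In 10 bins of coding length every median then lay from 0.066 to 0.083. Counts given below for that setting carry this shift and do not show an effect of length alone.

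Summed counts ranged from 42324200 to 55898774 per library, and every count was even, so that each sequenced fragment may have entered as 2. Among the 6 libraries compared, the first principal component held 65.0% of the variance and separated the groups. The second held 11.9% and set GSK126 replicate 3 (-26.54) apart from GSK126 replicates 1 and 2 (9.99 and 17.20). In that library the deviation from the group mean followed coding length, which took up 21.4% of its variance over genes. Without it, 3061 genes were higher and 3257 lower, and 5084 of the 5450 calls (93.3%) were still made with the same sign. The median difference by coding length ran from -0.035 in the shortest bin and -0.057 in the next to 0.079 in the longest, and without that library from 0.056 to -0.020.

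**Figure D1:**
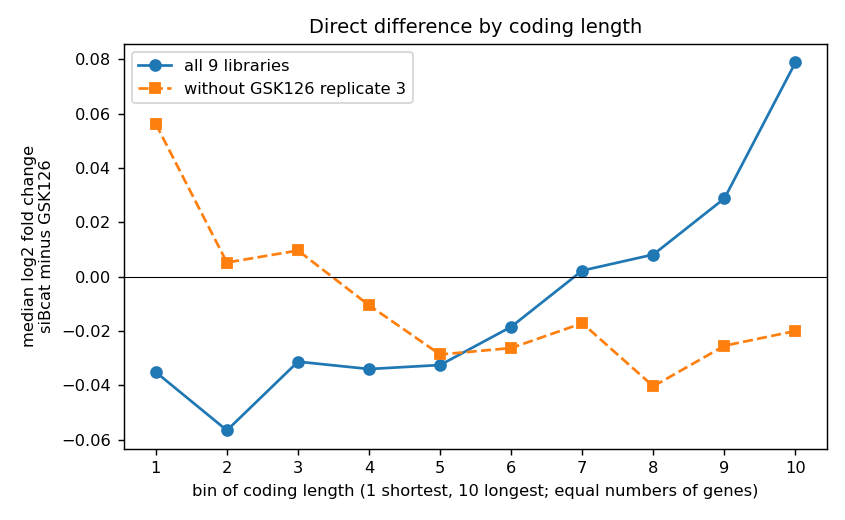
Median log2 fold change (siBcat minus GSK126) in 10 equal bins of genes ordered by coding length, with all 9 libraries in the fit and without GSK126 replicate 3. The medians lie within 0.08 of 0, and their slope turns over when that library is left out.

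The knockdown was seen in every siBcat library. Ctnnb1 (chr9:120933400-120960507, mm10 as in the count table) stood at 854, 859.9 and 879 CPM in siCTL, 925, 949 and 906 with GSK126 and 19.3, 19.3 and 19.1 with siBcat. The drop from GSK126 to siBcat was 48.1-fold (-5.59 ± 0.05, adjusted p = 9.45e-16), the largest drop of the genes averaging 2 CPM or more. Jup encodes gamma-catenin (plakoglobin), the closest relative of beta-catenin, and stood at 43.1, 37.7 and 36.3 CPM in siCTL, 32.3, 28.7 and 29.5 with GSK126 and 18.8, 16.6 and 18.5 with siBcat. Jup was lower in siBcat than in GSK126 (-0.75 ± 0.08, adjusted p = 1.21e-05), with no overlap between the libraries. Ezh2, the target of the inhibitor, stood at 29.3, 25.9 and 28.3 CPM in GSK126 and 27.1, 27.3 and 27.96 in siBcat, a difference of -0.02 with a 95% interval from -0.16 to 0.11 (adjusted p = 0.812). An mRNA level says nothing of enzyme activity, so Ezh2 mRNA does not check the inhibitor label. Ezh1, the alternative catalytic subunit, was lower in siBcat (24.2, 21.8 and 21.5 CPM in GSK126 and 17.4, 16.02 and 18.7 in siBcat; -0.37 ± 0.07, adjusted p = 0.0015).

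Fat-cell genes had the lowest median of the 37 gene lists examined. Of 26 adipocyte genes tested, 20 were lower in siBcat, 0 were higher and 6 did not pass in edgeR, with a list median of -0.91 against -0.01 for all genes. At an unadjusted p under 0.05, 1 was higher; DESeq2 called 1 and limma-voom 0. Adipoq (chr16:23146536-23157968), which encodes the fat-cell hormone adiponectin, stood at 2.80, 2.82 and 3.82 CPM in siCTL, 24.6, 23.6 and 28.5 with GSK126 and 0.828, 1.05 and 1.23 with siBcat. All 3 GSK126 libraries lay above siCTL and all 3 siBcat libraries below it, a 24.5-fold difference (-4.62 ± 0.16, adjusted p = 8.93e-10). The fatty acid carriers Fabp4 (91.9, 94.2 and 118 CPM in GSK126 and 26.1, 26.7 and 24.98 in siBcat; -1.97 ± 0.09) and Fabp5 (-1.33) were lower too. Plin1, the coat protein of lipid droplets, stood at 0.724, 0.881 and 0.933 CPM in siCTL, 19.9, 19.7 and 17.3 with GSK126 and 0.292, 0.850 and 0.919 with siBcat, and siBcat did not overlap GSK126 (-4.76 ± 0.22, adjusted p = 9.13e-09).

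Lpl, which releases fatty acids from lipoproteins, fell from 2142 ± 95.2 CPM in GSK126 to 1142 ± 38.7 in siBcat (SD, n = 3; log2 -0.91 ± 0.05). Cd36, a fatty acid receptor, stood at 0.181, 0.308 and 0.170 CPM in siCTL, 10.3, 9.60 and 7.68 with GSK126 and 0.243, 0.162 and 0.525 with siBcat, a log2 difference of -4.89 ± 0.27 that came to -5.51 without siBcat replicate 3. Cidec, a protein of lipid droplet fusion, stood at 3.002, 2.66 and 3.34 CPM in GSK126 and 0.146, 0.121 and 0.219 in siBcat (-4.19 ± 0.26). Plin4 (-0.77), the glycerol channel Aqp7 (-1.11) and the fat-cell transcription factor Cebpa (-0.84) were lower by smaller amounts. Cfd, which encodes the fat-cell protease adipsin, stood at 0.0452, 0.0881 and 0 CPM in siCTL, 2.33, 2.07 and 2.83 with GSK126 and 0, 0.0405 and 0.0438 with siBcat. Its siBcat libraries held 0 to 2 counts, so no fold change is given. Zfp423, a factor of preadipocytes, did not pass (-0.11, adjusted p = 0.254), although it passed without GSK126 replicate 3 (-0.17). Without that library 23 of the 26 genes were lower, and without siBcat replicate 1, 18. Leaving out siCTL replicate 3 or siBcat replicate 3 gave 1 higher gene.

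Against siCTL, with which both groups share the same 3 control libraries, the adipocyte list had a median of 0.71 in GSK126 and -0.15 in siBcat. Per library, the mean log2 level over the siCTL mean was 1.25 in each of the 3 GSK126 libraries and -0.24, -0.14 and -0.12 in siBcat. For these means, here and for the lists below, 0.1 CPM was added to every value. The mean depends on that addition where genes lie near 0 CPM, as Cfd and Cd36 do in siCTL. Adipoq differed from siCTL by 3.02 ± 0.14 in GSK126 (adjusted p = 2.8e-08) and by -1.60 ± 0.18 in siBcat (adjusted p = 2.11e-05). For Plin1 the log2 differences from siCTL were 4.48 ± 0.21 in GSK126 and -0.27 ± 0.30 in siBcat (adjusted p = 6.46e-08 and 0.508), and for Lpl 0.27 ± 0.05 and -0.63 ± 0.05 (adjusted p = 0.00187 and 1.2e-06). For Cd36 they were 5.37 ± 0.29 and 0.49 ± 0.46 (adjusted p = 1.17e-07 and 0.439). Over all genes, 25% were called between GSK126 and siCTL and 35.2% between siBcat and siCTL. In bulk RNA, fewer cells of a type and less RNA per cell cannot be told apart, and this holds for each list below.

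**Figure D2:**
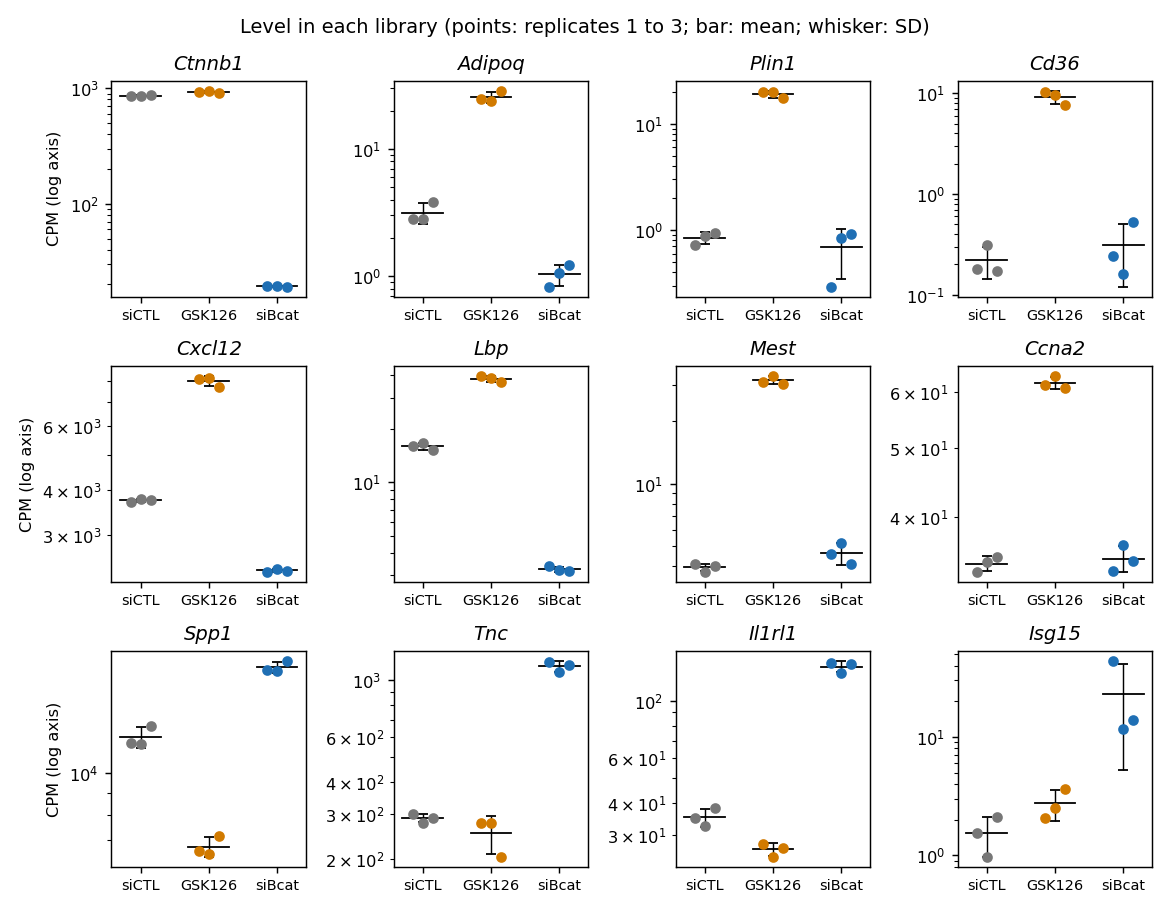
CPM on a log axis in each of the 9 libraries for 12 genes, with points for libraries, bars for group means and whiskers for SD (n = 3). Ctnnb1, Adipoq, Plin1, Cd36, Cxcl12 and Lbp are lower in siBcat than in GSK126, and Spp1, Tnc, Il1rl1 and Isg15 are higher.

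Fatty acid synthesis moved the same way as the fat-cell list: of 16 genes tested 9 were lower in siBcat and 1 was higher, with a median of -0.26. Scd1, the desaturase that makes oleic acid, stood at 1408, 1457 and 1196 CPM in GSK126 and 533, 508 and 535 in siBcat (-1.37 ± 0.07, adjusted p = 1.22e-08). All siBcat libraries were below all GSK126 libraries. The elongase Elovl5 (-0.88), the acetyl-CoA carboxylase Acacb (-1.06) and the lipogenic transcription factor Srebf1 (-0.76) were also lower. Fasn, the fatty acid synthase itself, did not pass (-0.16, adjusted p = 0.308), but did so without GSK126 replicate 3 (-0.30). Of 25 cholesterol synthesis genes, 12 were lower and 3 higher (median -0.21), and 5 were higher with the trend on coding length removed from every library. They included the sterol sensor Insig1 (-0.54 ± 0.05), which was lower, and the sterol reductase Hsd17b7 (0.60 ± 0.07), which was higher.

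Marrow stroma also feeds blood stem cells through secreted and surface factors. Of 20 such niche and progenitor genes, 6 were higher and 7 lower (median -0.02). Cxcl12, the chemokine that holds blood stem cells in the marrow, had the largest loss of CPM of all genes. It stood at 3712, 3779.8 and 3755 CPM in siCTL, 8124, 8178 and 7698 with GSK126 and 2376, 2419.6 and 2389 with siBcat, so that GSK126 lay above siCTL and siBcat below it in every library (chr6:117168535-117181368; -1.74 ± 0.05, adjusted p = 1.49e-10). The adhesion molecule Vcam1 was lower in siBcat (270.5 ± 11.1 against 113 ± 1.49 CPM; log2 -1.26 ± 0.05), as was Kitl, the stem cell factor (-1.40 ± 0.08). Csf1, the growth factor of macrophages, was higher (471, 469 and 458 CPM in GSK126 and 815, 801 and 803 in siBcat; 0.79 ± 0.04). Nestin, encoded by Nes, was lower (-0.94), whereas the receptor Pdgfrb was higher (0.54).

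Of 22 inflammatory secreted factors and their regulators, 8 were higher and 9 lower (median -0.24). Lbp, which binds bacterial lipopolysaccharide, stood at 16.1, 16.6 and 15.1 CPM in siCTL, 39.5, 38.8 and 36.7 with GSK126 and 3.36, 3.20 and 3.15 with siBcat. The drop from GSK126 to siBcat was 11.8-fold (-3.57 ± 0.08, adjusted p = 1.32e-11), and the 3 groups did not overlap. Il1rl1, the receptor of interleukin-33, stood at 34.8, 32.6 and 38.2 CPM in siCTL, 27.8, 24.7 and 26.6 with GSK126 and 141, 128 and 139 with siBcat, 5.14-fold higher in siBcat (2.36 ± 0.07, adjusted p = 3.97e-10). The prostaglandin synthases Ptgs1 (0.97 ± 0.05) and Ptgs2 (0.77 ± 0.07) were higher. Tnfaip3 (-0.95) and Nfkbia (-0.68), which restrain NF-kappaB, were lower. Complement C3 stood at 3.39, 4.23 and 3.76 CPM in GSK126 and 0.0974, 0.162 and 0 in siBcat. With a filter of 1 CPM in 3 libraries, 5 of the listed genes were higher.

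Division genes separated the treatments almost as a block. Of 36 mitosis genes tested, 35 were lower in siBcat and 0 higher in edgeR, with a median of -0.62; the exception was Pttg1, the securin (-0.27, adjusted p = 0.0633), which was called lower without GSK126 replicate 2 (-0.36). Ccna2, which encodes cyclin A2, stood at 33.5, 34.5 and 35.1 CPM in siCTL, 61.3, 63.1 and 60.8 with GSK126 and 33.6, 36.5 and 34.7 with siBcat. Each siBcat library lay below each GSK126 library and close to siCTL (-0.82 ± 0.06, adjusted p = 1.68e-07). The kinetochore protein Cenpf (-0.90 ± 0.07), the spindle protein Nusap1 (-0.89 ± 0.07), topoisomerase II Top2a (-0.64 ± 0.05), the kinetochore subunit Nuf2 (-0.77) and survivin, Birc5 (-1.19), were lower. The mean log2 level of the list over the siCTL mean was 0.62, 0.63 and 0.61 in the GSK126 libraries and 0.01, 0.04 and 0.02 in siBcat. Against the shared siCTL libraries, Ccna2 differed by 0.85 ± 0.06 in GSK126 (adjusted p = 5.65e-07) and by 0.02 ± 0.06 in siBcat (adjusted p = 0.774).

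Of 41 DNA replication genes, 28 were lower and 0 higher (median -0.31); 1 was higher with the length trend removed from every library. In neither division list was a gene higher at an unadjusted p under 0.05 (0 and 0), nor by DESeq2 or limma-voom (0 each). E2f1, the transcription factor of S-phase entry, stood at 40.7, 38.3 and 43.2 CPM in GSK126 and 23.8, 25.6 and 25.5 in siBcat (-0.70 ± 0.06), and its groups did not overlap. The DNA ligase Lig1 (-0.70 ± 0.06), the helicase subunits Mcm3 (-0.58 ± 0.05), Mcm6 (-0.48) and Mcm2 (-0.52), thymidine kinase Tk1 (-0.68) and the ribonucleotide reductase subunit Rrm2 (-0.40) were lower. Mcm4, of the same helicase, did not pass (-0.06, 95% interval -0.17 to 0.05). Per library the list mean over siCTL was 0.55, 0.54 and 0.59 in GSK126 and 0.17, 0.21 and 0.20 in siBcat.

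Many promoters of division genes carry a CCAAT box, bound by NF-Y, and a CHR element, bound by the MuvB complex. Those of replication genes often carry E2F sites. The motifs were searched on both strands in the 250 bases before each start in the RefSeq promoters of GRCm38.p6, and were chosen after the values were seen. CCAAT occurred in 33.8% of all 32817 windows and in 23 of 32 mitosis windows (71.9%), from 30 genes matched by name. TTTGAA, the CHR core, occurred in 5245 of the 32817 windows and in 11 of 32 (34.4%), and both together in 5.54% and in 10 of 32 (31.2%). An E2F site (TTTCGCGC, TTTGGCGC or TTTCCCGC) occurred in 1.53% of all windows and in 10 of 41 replication windows (24.4%), from 33 genes matched. The motifs were not confined to 1 list. Replication windows held CCAAT in 25 of 41 (61.0%), TTTGAA in 6 (14.6%) and both in 5 (12.2%). TTTGAA occurred in 8 of 30 windows of interferon effectors (26.7%), and an E2F site in 1 of 32 mitosis windows. A match describes letters only. The mitosis genes below were taken in order of adjusted p from called genes with both elements in the 120 bases before the start. Not every chromosome was eligible for this choice, or for the promoters shown further below. Those 120 bases are shown 5′ to 3′ on the gene's strand, with CCAAT and TTTGAA or their reverse complements in capitals.
Top2a: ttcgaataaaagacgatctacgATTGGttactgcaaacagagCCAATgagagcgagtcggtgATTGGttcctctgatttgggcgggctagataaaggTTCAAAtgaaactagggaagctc
Ube2c: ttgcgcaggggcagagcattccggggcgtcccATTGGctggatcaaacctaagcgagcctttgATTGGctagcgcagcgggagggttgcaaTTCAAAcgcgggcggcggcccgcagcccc
Prc1: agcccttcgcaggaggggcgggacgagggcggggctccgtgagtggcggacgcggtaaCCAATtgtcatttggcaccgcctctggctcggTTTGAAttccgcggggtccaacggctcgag
Kif11: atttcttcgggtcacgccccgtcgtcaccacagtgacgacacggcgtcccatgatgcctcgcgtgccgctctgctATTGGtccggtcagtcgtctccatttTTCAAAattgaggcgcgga
These lie at chr11:99024190-99024309 (minus strand), chr2:164769809-164769928 (plus strand), chr7:80294356-80294475 (plus strand) and chr19:37376262-37376381 (plus strand). The direct differences were -0.64 for Top2a, -0.83 for the ubiquitin ligase partner Ube2c, -0.45 for the spindle midzone protein Prc1 and -0.55 for the motor Kif11.

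The replication genes shown next were taken in order of adjusted p from called genes on eligible chromosomes that hold an E2F site. Each is given as 60 bases of the promoter in the same way, with the site in capitals and overlapping matches joined.
Mcm6: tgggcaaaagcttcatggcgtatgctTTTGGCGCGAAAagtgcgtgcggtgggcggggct
Uhrf1: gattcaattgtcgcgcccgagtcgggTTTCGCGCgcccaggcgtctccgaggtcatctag
Mcm7: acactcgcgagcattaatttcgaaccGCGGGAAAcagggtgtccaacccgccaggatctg
Mcm5: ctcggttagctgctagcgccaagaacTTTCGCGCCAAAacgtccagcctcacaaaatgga
These lie at chr1:128359782-128359841 (minus strand), chr17:56304102-56304161 (plus strand), chr5:138172015-138172074 (minus strand) and chr8:75109330-75109389 (plus strand). Mcm6, Mcm7 and Mcm5 encode helicase subunits and were lower, with log2 differences of -0.48, -0.41 and -0.37. Uhrf1, which brings the maintenance DNA methyltransferase to replicating DNA, was lower too (-0.54).

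Cdk inhibitors and p53 targets were mixed, with 8 of 25 higher, 7 lower and a median of 0.02. The p53 targets Ccng1 (672, 681 and 588 CPM in GSK126 and 1115, 1153 and 1151 in siBcat; 0.82 ± 0.06), Pmaip1 (0.60 ± 0.06), Mdm2 (0.49) and Btg2 (0.41) were higher in siBcat. The Cdk4 and Cdk6 inhibitors Cdkn2c (-0.71) and Cdkn2d (-0.82) were lower. Cdkn1a, which encodes p21, was higher by 0.30 ± 0.05 (adjusted p = 0.000709).

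Interferon-induced genes had the highest median of the lists. Of 36 effectors tested, 26 were higher in siBcat and 2 lower, with a median of 0.77; leaving out single libraries of GSK126 or siBcat left 1 to 3 lower. Isg15, a ubiquitin-like modifier (chr4:156199424-156200818), stood at 1.54, 0.969 and 2.12 CPM in siCTL, 2.08, 2.53 and 3.65 with GSK126 and 43.7, 11.7 and 13.96 with siBcat. All siBcat libraries were above all others, but siBcat replicate 1 was well above replicates 2 and 3 (3.06 ± 0.56, adjusted p = 0.00295). Without siBcat replicate 1 the difference was 2.22 (adjusted p = 0.00011). D14Ertd668e, known as Phf11d, had the smallest adjusted p of the list (0.271, 0.308 and 0.424 CPM in siCTL, 0.459, 0.459 and 0.427 with GSK126 and 4.48, 2.43 and 1.53 with siBcat; 2.63 ± 0.37, or 2.14 without siBcat replicate 1). The ubiquitin ligase Trim25 (0.50 ± 0.07), the nucleotide kinase Cmpk2 (1.91 ± 0.31) and Ifi27l1 (0.59) were higher, and Ifit2, a binder of viral RNA, was lower (54.3, 56.7 and 48.8 CPM in GSK126 and 41.3, 35.04 and 36.9 in siBcat; -0.50 ± 0.08). Rtp4 (2.17 ± 0.32) and Xaf1 (2.004 ± 0.34) were higher, with 1.80 and 1.55 without siBcat replicate 1.

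Other large rises of the list shrank by more than 1.5 times without siBcat replicate 1. Ifi44 went from 3.91 to 2.95, Usp18, the protease that removes Isg15, from 2.63 to 1.95, Oasl2 from 2.74 to 1.87 and Ifit1 from 2.13 to 1.54. All 4 remained called. I830012O16Rik, known as Ifit3b, lost its call without that library (1.27 to 0.45, adjusted p = 0.0937), and also without any 1 siCTL or GSK126 library. Per library, the list mean over the siCTL mean was 2.11, 1.16 and 1.23 in siBcat, 0.36, 0.48 and 0.54 in GSK126 and -0.16, -0.09 and 0.25 in siCTL. Without siBcat replicate 1, 21 genes were higher and 3 lower (median 0.53), and without GSK126 replicate 3, 19 and 2 (median 0.80). Mx1, a classic effector, held 0 to 6 counts per library and Ifnb1, which encodes interferon beta, held 0, and neither was tested. Oas, Ifit and Gbp genes have close copies, and reads may be split between them.

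**Figure D3:**
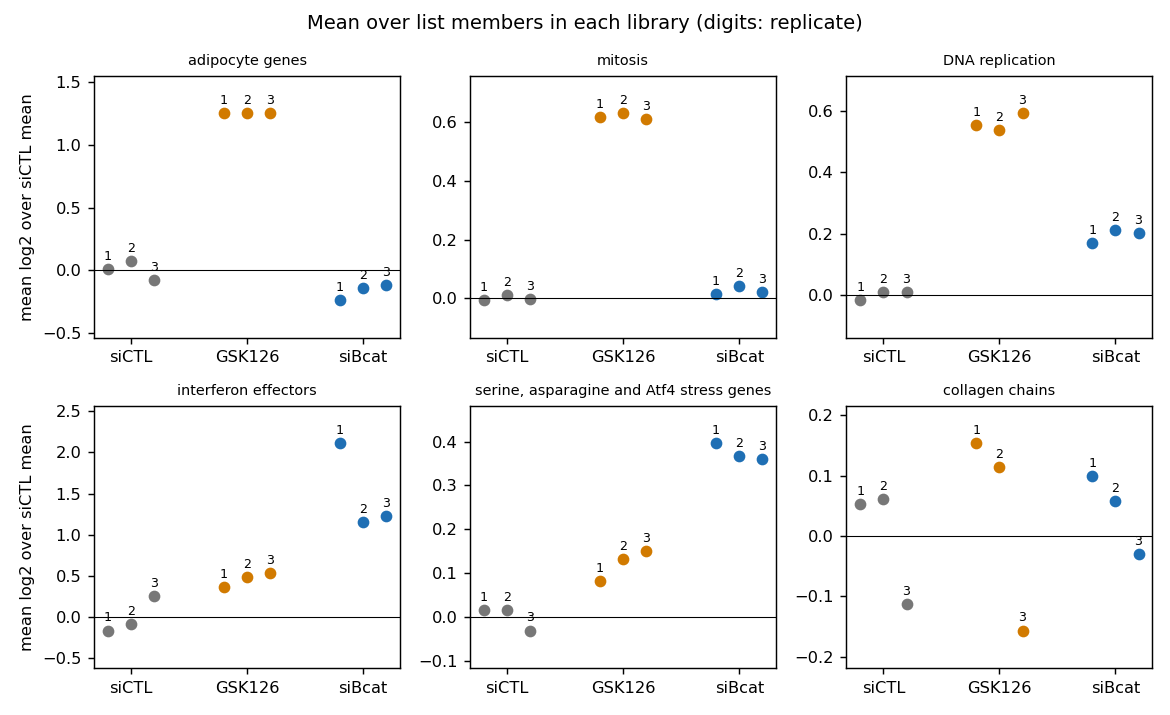
Mean log2 level (CPM plus 0.1) of 6 gene lists in each library, relative to the siCTL mean of each gene, with digits for replicate numbers. GSK126 libraries lie highest for adipocyte, mitosis and DNA replication genes, and siBcat libraries for interferon effectors, where replicate 1 stands above replicates 2 and 3.

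The interferon-stimulated response element binds a complex that holds Stat2 and Irf9. Its core, GAAANNGAAA on either strand, occurred in 2.97% of all 32817 promoter windows of 250 bases and in 12 of 30 windows of the interferon effectors, from 27 genes matched by name. The effectors shown were taken in order of adjusted p from called genes that hold it, and not every chromosome was eligible. Each is given as 60 bases of the promoter, 5′ to 3′ on the gene's strand. The core or its reverse complement is in capitals, with overlapping matches joined.
Irgm1: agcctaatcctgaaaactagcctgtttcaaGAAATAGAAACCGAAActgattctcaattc
Isg15: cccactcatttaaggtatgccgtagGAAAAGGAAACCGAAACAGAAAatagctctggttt
Ifit1: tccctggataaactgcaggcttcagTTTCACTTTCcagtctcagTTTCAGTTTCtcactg
Oas3: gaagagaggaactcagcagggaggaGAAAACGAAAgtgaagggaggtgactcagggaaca
Gbp3: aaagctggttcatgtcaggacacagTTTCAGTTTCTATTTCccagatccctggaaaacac
Rsad2: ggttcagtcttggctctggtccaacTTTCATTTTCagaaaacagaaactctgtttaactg
These lie at chr11:48871421-48871480 (minus strand), chr4:156200862-156200921 (minus strand), chr19:34640760-34640819 (plus strand), chr5:120777700-120777759 (minus strand), chr3:142559974-142560033 (plus strand) and chr12:26456538-26456597 (minus strand). Direct differences were 0.53 for the GTPase Irgm1, 2.05 for the RNA sensor Oas3, 2.04 for the GTPase Gbp3 and 1.83 for viperin, Rsad2. Gbp3 came to 1.29 without siBcat replicate 1 and was not called without GSK126 replicate 3 (adjusted p = 0.0612). Rsad2 was not called without GSK126 replicate 1.

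Upstream of the effectors, 13 of 24 sensors and signalling genes were higher and 4 lower (median 0.22), and 2 were lower with the length trend removed from every library. The interferon-gamma receptor chain Ifngr1 was lower (112, 118 and 111 CPM in GSK126 and 70.4, 73.9 and 71.97 in siBcat; -0.66 ± 0.05). Tmem173, which encodes the adaptor Sting, was higher (41.8, 43.7 and 44.3 CPM in GSK126 and 69.2, 68.7 and 67.5 in siBcat; 0.66 ± 0.05), as was Stat3 (0.36 ± 0.05). The RNA helicases Dhx58 (2.28 ± 0.31), Ifih1 (0.97 ± 0.15) and Ddx58 (0.83 ± 0.14) and the transcription factors Irf9 (1.05 ± 0.16), Stat2 (1.18 ± 0.18) and Irf7 (2.22 ± 0.37) were higher. Irf7 stood at 2.76, 3.13 and 3.78 CPM in siCTL, 3.85, 3.49 and 4.73 with GSK126 and 31.4, 10.6 and 14.5 with siBcat, so siBcat replicate 1 again stood highest, and the difference was 1.64 without it. Zbp1, a sensor of Z-form nucleic acid, lost its call without that library (1.497 to 0.51, adjusted p = 0.16), and also without any 1 siCTL or GSK126 library.

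Antigen presentation did not move as a group: 4 of 17 genes were higher, 6 lower and the median was -0.07. The class I heavy chain H2-K1 was lower (47.8, 46.3 and 57.8 CPM in GSK126 and 33.6, 30.7 and 32.1 in siBcat; -0.66 ± 0.08), whereas its transactivator Nlrc5 (0.61 ± 0.10) and the peptide transporter Tap1 (0.43 ± 0.07) were higher. Class I genes are near copies of each other, so reads may be misassigned among them. B2m, the light chain, did not pass (-0.07, 95% interval -0.21 to 0.07). Without siBcat replicate 2, 3 of the listed genes were lower, and without replicate 3, 2.

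The medium was osteogenic, and the bone genes split. Of 19 bone matrix and mineralization genes, 6 were higher and 9 lower (median -0.29). Spp1, which encodes osteopontin, had the largest gain of CPM of all genes: it stood at 11763, 11714 and 12891 CPM in siCTL, 6587, 6482 and 7151 with GSK126 and 17359, 17242 and 18220.2 with siBcat. GSK126 lay below siCTL and siBcat above it in every library (chr5:104435111-104441053; 1.39 ± 0.06, adjusted p = 4.94e-09). Ank, which exports the mineral inhibitor pyrophosphate, was higher (1.13 ± 0.05), and so was the matrix protein Dmp1 (0.81 ± 0.09).

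Phospho1, a phosphatase of matrix vesicles, was lower (7.38, 7.30 and 7.21 CPM in GSK126 and 2.82, 2.95 and 2.41 in siBcat; -1.42 ± 0.13). Phex, a protease that limits the phosphate hormone Fgf23, was lower too (-0.93 ± 0.10). Alpl, the tissue-nonspecific alkaline phosphatase, stood at 10.9, 12.1 and 10.9 CPM in GSK126 and 6.72, 6.03 and 6.30 in siBcat and was lower (-0.83 ± 0.10, adjusted p = 2.21e-05). Smpd3, a sphingomyelinase needed for mineralization, was higher (1.01 ± 0.12). Bglap, which encodes osteocalcin, held 0 to 10 counts per library and was not tested, nor was Sost, at 0.

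Of 15 osteoblast transcription factors, 3 were higher (20.0%) and 1 lower (6.7%), against 19.3% and 21.9% of all genes (median 0.10). Dlx3 stood at 5.16, 4.76 and 4.54 CPM in siCTL, 5.40, 5.19 and 4.03 with GSK126 and 14.02, 12.9 and 13.7 with siBcat, so that GSK126 overlapped siCTL and all siBcat libraries were higher (1.47 ± 0.11, adjusted p = 5.9e-07). Cbfb, the partner of Runx factors (0.42 ± 0.05), and Runx1 (0.55 ± 0.10) were higher. The 1 lower call, Twist2 (-0.44), was lost without GSK126 replicate 3, siBcat replicate 1 or siBcat replicate 3. Runx2, the master factor of osteoblasts, did not pass (76.2, 80.3 and 63.3 CPM in GSK126 and 68.01, 69.7 and 64.7 in siBcat; -0.12, adjusted p = 0.242), but was called without GSK126 replicate 3 (-0.21, adjusted p = 0.000794). Of 10 cartilage genes, 4 were lower and 0 higher (median -0.52; 0 higher at an unadjusted p under 0.05 in edgeR, and 0 by DESeq2 or limma-voom). These were the hypertrophy collagen Col10a1 (141, 131 and 122 CPM in GSK126 and 21.9, 19.02 and 22.1 in siBcat; -2.65 ± 0.08), the joint lubricant Prg4 (-1.08 ± 0.11), Matn3 (-2.18 ± 0.36) and Col2a1 (-0.47 ± 0.12).

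Genes of the Wnt pathway were compared by mRNA level only, and the activity of the pathway was not measured. Of 30 feedback targets and nuclear factors, 14 were lower in siBcat and 5 higher (median -0.18). Nkd1, a feedback inhibitor, stood at 1.95, 1.94 and 2.08 CPM in siCTL, 6.499, 6.48 and 6.83 with GSK126 and 1.70, 1.82 and 1.58 with siBcat, and its groups did not overlap (-1.95 ± 0.12, adjusted p = 8.02e-08). The nuclear partner Tcf7l2 (47.2, 50.3 and 48.8 CPM in GSK126 and 28.4, 27.1 and 27.1 in siBcat; -0.82 ± 0.06), the co-repressor Tle3 (-0.51 ± 0.06), Nkd2 (-0.76 ± 0.09), Apcdd1 (-1.85 ± 0.22) and the R-spondin receptor Lgr5 (-0.72 ± 0.09) were lower. Cd44, a hyaluronan receptor, was higher (157, 157 and 138 CPM in GSK126 and 275, 269 and 267 in siBcat; 0.84 ± 0.06). Ccnd1, which encodes cyclin D1, did not pass (-0.06; -0.09 and called without GSK126 replicate 3). Axin2, a target in many tissues, held 0 to 8 counts per library and Sp5 0, and neither was tested.

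Among 31 Wnt ligands, receptors and antagonists, 16 were lower and 2 higher (median -0.26). The secreted antagonist Frzb stood at 63.7, 63.8 and 58.4 CPM in siCTL, 102, 103 and 103 with GSK126 and 40.8, 38.9 and 40.3 with siBcat and was lower in siBcat (-1.36 ± 0.05, adjusted p = 2.06e-09). Dkk2, another antagonist, stood at 12.1, 11.8 and 9.81 CPM in GSK126 and 1.07, 1.25 and 1.18 in siBcat (-3.26 ± 0.13), and the Wnt agonist Rspo3 at 33.8, 32.4 and 35.6 CPM in GSK126 and 7.01, 6.92 and 9.06 in siBcat (-2.15 ± 0.10). Neither gene overlapped between the groups. Sfrp1 was lower (-0.998 ± 0.07), the Wnt co-receptor Ryk higher (0.66 ± 0.05) and the ligand Wnt5b lower (-1.91 ± 0.14).

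Of 14 cadherins and other catenins, 3 were higher (21.4%) and 2 lower (14.3%), against 19.3% and 21.9% of all genes (median 0.01). Besides Jup, the osteoblast cadherin Cdh11 was lower (-0.28 ± 0.06) and N-cadherin, Cdh2, was higher (0.26 ± 0.06). Leaving out any 1 siBcat library left 1 higher gene, and 4 genes were lower without GSK126 replicate 3. The E-cadherin gene Cdh1 held 0 to 8 counts and was not tested.

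BMP ligands also drive bone formation. Of 26 mRNAs of BMP ligands, antagonists, receptors and targets, 13 were lower in siBcat, 1 was higher and 12 did not pass (median -0.32), with 2 higher without GSK126 replicate 2 and 4 with the length trend removed from every library. Bmp4 stood at 10.6, 9.25 and 10.6 CPM in siCTL, 24.5, 27.1 and 24.3 with GSK126 and 10.6, 9.59 and 10.8 with siBcat (-1.29 ± 0.08, adjusted p = 1.28e-07). The antagonist Chrdl1 (-1.38 ± 0.13), Bmp2 (1.66, 2.07 and 2.21 CPM in GSK126 and 0.341, 0.202 and 0.306 in siBcat; -2.81 ± 0.28), the antagonist Chrd (-0.93 ± 0.11) and the receptor Acvr2a (-0.76 ± 0.10) were lower, as was the direct target Id2 (-0.72 ± 0.09). The receptor Acvr1 was the 1 higher call (77.7, 77.3 and 75.4 CPM in GSK126 and 95.2, 94.7 and 93.9 in siBcat; 0.30 ± 0.05).

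Of 12 PRC2 genes, 6 were lower and 1 higher (median -0.13). Phf19, which brings PRC2 to methylated lysine 36 of histone H3, stood at 2.76, 2.51 and 2.46 CPM in siCTL, 5.62, 6.61 and 5.74 with GSK126 and 1.75, 1.78 and 1.36 with siBcat, with no overlap between the 3 groups (-1.87 ± 0.14, adjusted p = 5.18e-07). The histone chaperone subunits Rbbp4 (-0.35 ± 0.06) and Rbbp7 (-0.23 ± 0.05) were lower. The 1 higher call, Aebp2 (0.15), was lost without GSK126 replicate 1 or any single siBcat library. Of 21 PRC1 subunits and H3K27 demethylases, 9 were lower and 4 higher (median -0.07), and 2 were higher without GSK126 replicate 1, siBcat replicate 1 or siBcat replicate 3. The chromobox readers Cbx6 (252, 256 and 271 CPM in GSK126 and 139.5, 139 and 136 in siBcat; -0.91 ± 0.06) and Cbx7 (5.19, 4.68 and 5.59 CPM in GSK126 and 1.36, 0.971 and 1.31 in siBcat; -2.09 ± 0.16) were lower, and so was Bmi1 (-0.45 ± 0.06).

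Hox genes are classic PRC2 targets. Of 21 tested, 7 were lower and 2 higher (median -0.25), 9 calls in all, a share near the 41.2% of all genes. They included Hoxa10 (-0.66 ± 0.05), Hoxa13 (-0.61 ± 0.09) and Hoxc13 (-0.37 ± 0.07), which were lower, and Hoxc10 (0.31 ± 0.06), which was higher. Without GSK126 replicate 1, siBcat replicate 1 or siBcat replicate 3, 1 was higher. Of 45 other developmental transcription factors, 8 were higher (17.8%) and 13 lower (28.9%), against 19.3% and 21.9% of all genes (median -0.01). Onecut2 (15.3, 15.7 and 10.9 CPM in GSK126 and 34.5, 32.6 and 35.5 in siBcat; 1.30 ± 0.11) was higher and Foxc1 (-0.36 ± 0.05) lower.

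Of 15 imprinted genes, 7 were lower and 1 higher (median -0.35); without GSK126 replicate 2, 2 were higher. Mest, expressed from the paternal copy, stood at 4.07, 3.75 and 3.99 CPM in siCTL, 31.05, 33.2 and 30.5 with GSK126 and 4.58, 5.18 and 4.07 with siBcat (chr6:30733506-30748466). The siBcat and siCTL libraries overlapped, and the GSK126 libraries were far above both (-2.77 ± 0.09, adjusted p = 8.93e-10). Magel2 showed another pattern, 4.39, 3.61 and 3.95 CPM in siCTL, 5.90, 5.60 and 5.16 with GSK126 and 0.730, 0.647 and 0.656 with siBcat, in which siBcat stood apart (-3.03 ± 0.15, adjusted p = 1.1e-08). Impact was higher (0.79 ± 0.05), and the Notch-like ligand Dlk1 (-1.32 ± 0.20) and the growth factor Igf2 (-0.41 ± 0.07) were lower.

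**Figure D4:**
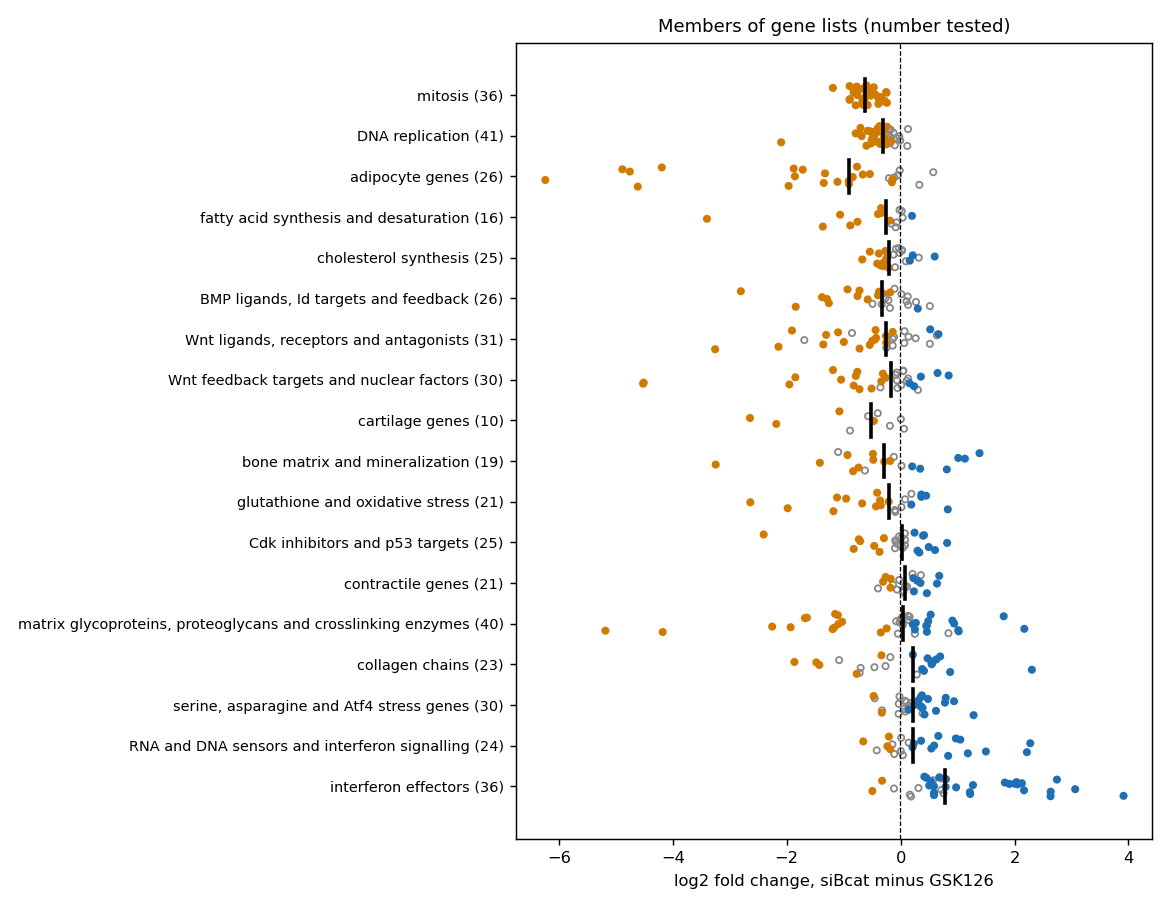
Log2 fold change (siBcat minus GSK126) of each tested member of 18 gene lists, with filled points for adjusted p under 0.05, open points for members not past it, a bar for the list median and a dashed line for the median of all genes. Mitosis and adipocyte members lie mostly to the negative side and interferon effectors to the positive side.

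Matrix genes moved in both directions. Of 23 collagen chains, 11 were higher and 5 lower (median 0.21), and 8 were lower with scaling by library size only. Col15a1, a basement membrane collagen, stood at 24.3, 19.9 and 20.8 CPM in siCTL, 21.3, 21.4 and 16.2 with GSK126 and 100.1, 91.98 and 98.7 with siBcat and was higher in siBcat (2.30 ± 0.11, adjusted p = 9.89e-09). Col18a1, the source of endostatin, stood at 76.8, 79.4 and 61.4 CPM in siCTL, 84.4, 80.8 and 71.5 with GSK126 and 28.9, 29.6 and 29.4 with siBcat and was lower (-1.43 ± 0.09, adjusted p = 1.37e-07). The beaded-filament chains Col6a2 (0.87 ± 0.07) and Col6a1 (0.55 ± 0.05) and the fibril chain Col3a1 (0.56 ± 0.06) were higher. The main collagen chains of bone were lower, Col1a2 (-0.29) and Col1a1 (-0.49), a call that Col1a1 lost without GSK126 replicate 3 (adjusted p = 0.0563).

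Among 40 matrix glycoproteins, proteoglycans and crosslinking enzymes, 14 were higher and 14 lower (median 0.04). Tnc, the de-adhesive glycoprotein tenascin-C, stood at 299.7, 277 and 290.0 CPM in siCTL, 276, 276 and 203 with GSK126 and 1180.2, 1073 and 1149 with siBcat (chr4:63959785-64047015). It was 4.51-fold higher in siBcat than in GSK126 (2.17 ± 0.10, adjusted p = 3.63e-08). Fibulin 1, Fbln1, was lower (73.99, 79.2 and 73.1 CPM in GSK126 and 20.1, 18.6 and 20.7 in siBcat; -1.93 ± 0.07), the crosslinking enzyme Loxl3 higher (1.02 ± 0.05) and transglutaminase Tgm2 lower (-1.68 ± 0.08). Ogn, a small proteoglycan, was lower (-1.03 ± 0.06). Sparcl1, a matricellular relative of osteonectin, stood at 2.17, 1.81 and 2.12 CPM in siCTL, 5.47, 4.87 and 4.42 with GSK126 and 0.243, 0 and 0.175 with siBcat (-5.19 ± 0.38), and its difference ran from -5.82 without siBcat replicate 1 to -4.55 without siBcat replicate 2.

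Of 21 contractile genes, a mark of myofibroblasts, 7 were higher and 4 lower (median 0.08). Actg2 (174, 174 and 186 CPM in GSK126 and 294, 271 and 289 in siBcat; 0.68 ± 0.05), caldesmon Cald1 (0.64 ± 0.06), Acta1 (0.46), smooth muscle actin Acta2 (0.29 ± 0.06) and Tagln (0.35 ± 0.08) were higher, and the myosin light chain Myl6 was lower (-0.26 ± 0.07). Actins share long stretches of sequence, so their counts are uncertain. Without GSK126 replicate 3, 11 were higher; without a single siBcat library, 1 or 2 were lower; with scaling by library size only, 5 were higher and 5 lower (median 0.01); and with the length trend of all libraries removed, 11 were higher and 2 lower (median 0.18).

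Amino acid and Atf4 stress genes were higher in siBcat in 15 of 30 cases and lower in 2 (median 0.21). Asns, asparagine synthetase, stood at 28.1, 33.1 and 33.01 CPM in siCTL, 44.9, 44.2 and 45.8 with GSK126 and 75.1, 76.8 and 79.3 with siBcat (0.78 ± 0.07, adjusted p = 1.39e-06). The mitochondrial folate enzyme Aldh1l2 (20.1, 18.4 and 13.5 CPM in GSK126 and 43.8, 40.8 and 41.7 in siBcat; 1.28 ± 0.11) and Pck2 (0.42 ± 0.06) were higher and Herpud1, of the endoplasmic reticulum stress response, lower (-0.47 ± 0.07). Without GSK126 replicate 3, 19 were higher and 1 lower, and 1 was lower without siBcat replicate 1 or 3. Atf4 itself did not pass (-0.03, 95% interval -0.19 to 0.12). Glutathione and oxidative stress genes went mainly the other way, with 11 of 21 lower and 5 higher (median -0.21). The glutathione transferases Gsta4 (14.9, 16.5 and 18.6 CPM in GSK126 and 2.53, 2.39 and 3.11 in siBcat; -2.64 ± 0.12), Gstm1 (-1.12 ± 0.07) and Gstt1 (-1.98 ± 0.14) were lower, with the reserve that this family has near copies. Sod3, the extracellular superoxide dismutase (0.83 ± 0.09), and Hmox1, heme oxygenase (0.45 ± 0.05), were higher.

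Outside the lists, the largest rises among genes of at least 2 CPM included the motor protein Kif5c, the protease Mcpt8, the synaptic scaffold Ppfia3 and the phosphodiesterase Pde4b. Kif5c stood at 4.84, 4.80 and 3.82 CPM in siCTL, 2.68, 3.12 and 3.45 with GSK126 and 18.7, 17.9 and 18.9 with siBcat (2.58 ± 0.12, adjusted p = 6.39e-09). Ppfia3 stood at 1.04, 1.15 and 0.891 CPM in siCTL, 0.954, 1.01 and 0.892 with GSK126 and 5.11, 5.10 and 4.90 with siBcat (2.40 ± 0.15), so GSK126 and siCTL overlapped and all siBcat libraries were above them. Among the largest drops were the matrix protease Adamts15 (4.63, 4.96 and 4.46 CPM in GSK126 and 0.243, 0.121 and 0.263 in siBcat; -4.49 ± 0.32), the carbonic anhydrase Car3 (13.2, 12.8 and 11.99 CPM in GSK126 and 0.584, 0.526 and 0.875 in siBcat; -4.25 ± 0.19) and Ahrr, a repressor of the aryl hydrocarbon receptor (5.05, 4.32 and 3.37 CPM in GSK126 and 0.195, 0.445 and 0.219 in siBcat; -3.85 ± 0.29). G0s2, an inhibitor of fat breakdown, stood at 9.82, 11.5 and 9.08 CPM in siCTL, 44.7, 46.9 and 53.3 with GSK126 and 7.01, 6.76 and 6.61 with siBcat (-2.83 ± 0.10, adjusted p = 8.93e-10). Iah1, an esterase, stood at 45.7, 47.9 and 44.3 CPM in siCTL, 46.5, 42.99 and 57.95 with GSK126 and 6.62, 5.87 and 6.13 with siBcat (-2.99 ± 0.11): siCTL and GSK126 overlapped, and siBcat was lower. Fbln7, an adhesive fibulin, was lower as well (-2.77 ± 0.13).

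In some genes the control libraries lay between the treatments, so that the direct difference exceeded either difference from siCTL. The rule for such genes gave Kif5c, Mcpt8, Il1rl1, Tnc and Pde4b among the higher and Ctnnb1, Sparcl1, Adipoq, Adamts15 and Car3 among the lower. Pde4b, which degrades cyclic AMP, stood at 3.39, 3.66 and 4.20 CPM in siCTL, 2.01, 2.11 and 1.71 with GSK126 and 7.50, 9.02 and 8.36 with siBcat. It differed from the shared siCTL libraries by 1.14 ± 0.13 in siBcat and -0.95 ± 0.14 in GSK126 (adjusted p = 1.83e-05 and 0.000342), and by 2.10 ± 0.13 directly. Car3 differed from siCTL by -1.08 ± 0.22 in siBcat and 3.17 ± 0.17 in GSK126.

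Other genes were bounded close together. The 95% interval of the direct difference lay within ± 0.5 for 7370 genes (55.7%), 2080 of them called. Among those with the largest changes against siCTL in both treatments were Fst and Nxph2, higher in both, and Fap and Gpr126, lower in both. Fst, the activin antagonist follistatin, stood at 2.17, 2.69 and 2.55 CPM in siCTL, 7.98, 8.04 and 8.30 with GSK126 and 8.37, 9.06 and 9.19 with siBcat, and its direct difference had a 95% interval from -0.08 to 0.34. Gpr126, an adhesion receptor, stood at 74.003, 75.04 and 79.6 CPM in siCTL, 40.5, 41.1 and 32.8 with GSK126 and 37.4, 38.7 and 38.6 with siBcat (interval -0.17 to 0.17). Nxph2, a secreted neurexin ligand, stood at 1.22, 1.10 and 1.10 CPM in siCTL, 3.18, 2.30 and 2.52 with GSK126 and 2.53, 3.36 and 2.89 with siBcat (interval -0.23 to 0.49), and the stromal protease Fap at 12.3, 14.1 and 17.2 CPM in siCTL, 8.02, 6.98 and 6.48 with GSK126 and 6.62, 7.001 and 8.01 with siBcat (interval -0.28 to 0.30). In these 4 genes the libraries of both treatments lay on the same side of the shared siCTL libraries. They were picked for changing alike against siCTL, so this was largely set by the choice.

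The stromal label was set against some of its defining markers. Pdgfra and Pdgfrb, receptors of mesenchymal cells, averaged 165 and 633 CPM in GSK126 and 204 and 919.6 in siBcat. Thy1, another marker of these cells, held 0 counts in all 9 libraries. The leukocyte marker Ptprc, the epithelial marker Epcam and the muscle factor Myog held 0 counts in all 9 libraries, Cdh5 of endothelium 0 to 2, Itgam of myeloid cells 0 to 4 and Pecam1 0 to 8. Of the markers that passed the filter, 1 of 6 haematopoietic genes was higher and 0 lower in edgeR (1 lower at an unadjusted p under 0.05, 0 by DESeq2 or limma-voom; 2 higher without GSK126 replicate 3). Their summed level was 9.61 to 11.95 CPM in GSK126 and 12.03 to 12.9 in siBcat. Of 3 endothelial genes 1 was higher and 1 lower, and 0 were lower without GSK126 replicate 1, siBcat replicate 1 or siBcat replicate 2. Of 10 neural genes 1 was higher and 5 lower, with sums of 56.5 to 67.8 CPM in GSK126, 46.1 to 50.2 in siBcat and 51.04 to 52.6 in siCTL. Of 5 epithelial and keratinocyte genes 1 was higher and 1 lower (median -0.41), and of 2 skeletal muscle genes 1 was lower and 0 higher (0 at an unadjusted p under 0.05 in edgeR and by DESeq2 or limma-voom). Cd74 of antigen-presenting cells stood at 0.459, 0.459 and 0.659 CPM in GSK126 and 0.925, 1.09 and 1.23 in siBcat (1.04 ± 0.26), and the neural proteoglycan Bcan at 1.73, 1.42 and 1.51 CPM in GSK126 and 5.11, 4.49 and 4.94 in siBcat (1.63 ± 0.17). The part of other cells in the results was not tested.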

How the data were processed

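Counts per gene were deposited as raw whole numbers for 9 libraries. The tools named, per the submitters' processing notes, are TopHat2 2.0.6, HTSeq and bcl2fastq, on mm10; whether counting used strand is not given in the sources used here. RPKM columns and 6 columns of per-sample values, named for siRNA and GSK126 together and with no sample here, were not used, and H3K27me3 ChIP-seq was not analysed here. All counts were even, so sampling error may be larger than the count implies.

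In R 4.3.3, edgeR 4.0.16 filtered genes by group (minimum count 10, minimum total 15), scaled by TMM and fitted a robust quasi-likelihood model over all 9 libraries, without a replicate block. Benjamini-Hochberg adjustment ran over 13240 genes, with a threshold of 0.05, and 95% intervals came from the SE. The procedure was tested on simulated counts. Figures used Python 3.11.15 and matplotlib 3.10.9.

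The groups, gene lists and named genes were chosen with earlier results of these data known. Named genes were Ctnnb1, Jup, Ezh2 and Ezh1, the 15 highest and lowest fold changes that averaged 2 CPM or more without overlap, the 10 largest CPM differences each way, the 5 each way with siCTL between the groups, the 5 each way that changed alike, and list members in order of adjusted p or, if not called, of level. Not every gene the rule allows is reported here, and a few further down a list are named for their role, such as Bglap and Cdkn1a, chosen after their values were seen. Alternatives were other scalings, filters and tools (DESeq2 1.42.0, limma 3.58.1), a replicate block, left-out libraries and, chosen after seeing the data, halved counts and length trends removed from all libraries. That last removal also took out the overall level of each library, on top of the TMM scaling.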

Additional observations from a re-analysis of the deposited data

How the results depend on the processing

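Across scalings, filters and tools, the number of genes higher in siBcat ran from 1880 to 2808 and of lower genes from 2754 to 3759. Leaving out 1 library gave 2053 to 3061 higher and 2363 to 3257 lower. With the length trend of all libraries removed, 4163 were higher and 2428 lower. The median of all genes was then 0.07, against -0.01 in the main fit, because the overall level of each library was also taken out on top of the scaling. These counts therefore do not measure a dependence on length alone. In the main fit, a fold change of at least 2 left 239 and 558. Of intervals, 2477 lay within ± 0.25. With the replicate number as a block there were 2486 higher and 2781 lower calls, against 2549 and 2901 without it. Deviations of same-numbered libraries correlated by 0.018, -0.012 and 0.015, and those of unlike numbers by -0.045 to 0.036. The trend on coding length in GSK126 replicate 3 is part of these deviations. Whether the numbers pair the cultures therefore cannot be told from them.

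Genes that were not called and lie near 0 changed sign. With the length trend of all libraries removed, Atf4 came to 0.085, B2m to 0.051, Ccnd1 to 0.012, Ezh2 to 0.075 and Mcm4 to 0.014. Fap and Gpr126 came to -0.0060 and -0.011 with upper-quartile scaling and -0.059 and -0.064 with library size only. With 1 library left out, Atf4 ran from -0.087 to 0.064, B2m from -0.11 to 0.0031, Ezh2 from -0.065 to 0.022, Fap from -0.068 to 0.11 and Gpr126 from -0.093 to 0.063. The median of all genes was -0.01 in the main fit, 0.07 with that length trend removed and -0.08 with library size only. The cause of the sign changes was not tested, and none of these genes passed the threshold there. No called gene named in the text changed sign. Of list counts, 1552 stayed within 1.5 times and 76 moved further, mostly counts of 5 or fewer.

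With 3 cultures a group and a median SE of 0.087, small differences are often not resolved, and genes under the count filter were not compared.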

Other observations

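Other lists covered secreted regulators of growth and matrix turnover, to be read against 19.3% higher and 21.9% lower among all genes. Of 24 metalloproteinases and inhibitors tested, 6 were higher in siBcat and 9 lower (median -0.06 against -0.01 for all genes); without GSK126 replicate 2, 3 were higher. Adamts1, a protease of versican, stood at 768, 766 and 770.4 CPM in siCTL, 622, 634 and 557 with GSK126 and 271, 271 and 280.4 with siBcat and was lower in siBcat than in GSK126 (-1.14 ± 0.05, adjusted p = 8.46e-09). Timp1, an inhibitor of metalloproteinases, stood at 270.3, 258 and 291 CPM in siCTL, 206, 201 and 256 with GSK126 and 652, 638 and 683 with siBcat and was higher (1.57 ± 0.08, adjusted p = 3.15e-08). The collagenase Mmp13 (54.4, 53.5 and 59.3 CPM in GSK126 and 107, 111 and 116 in siBcat; 1.003 ± 0.07) and the aggrecanase Adamts4 (1.04 ± 0.08) were higher. In the IGF axis 3 of 11 genes were lower (27.3%) and 2 higher (18.2%), close to those shares (median -0.16), and 5 were lower without GSK126 replicate 3 and 1 higher without siBcat replicate 1. Igfbp4, a carrier that blocks IGF, was lower (1019 ± 79.3 against 402 ± 28.6 CPM, SD, n = 3; log2 -1.34 ± 0.08), and Pappa, the protease that cleaves it, was higher (12.8, 14.7 and 7.80 CPM in GSK126 and 28.2, 27.4 and 27.8 in siBcat; 1.25 ± 0.17). The adaptor Irs2 was lower (-1.24 ± 0.19).

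Of 20 TGF-beta ligands, receptors and latent binders, 7 were higher and 6 lower (median 0.01). Ltbp2, a latent TGF-beta binding protein, was lower (55.5, 61.4 and 49.8 CPM in GSK126 and 18.6, 17.4 and 16.6 in siBcat; -1.66 ± 0.08), the activin chain Inhbb higher (0.60 ± 0.05) and the receptor Tgfbr1 lower (-0.81 ± 0.09). Of 19 Ccn family and Yap target genes, 6 were higher and 9 lower (median 0.03). Nov, known as Ccn3, stood at 110.5, 119 and 105 CPM in siCTL, 203, 212 and 193 with GSK126 and 32.03, 31.7 and 33.2 with siBcat and was lower (-2.65 ± 0.06, adjusted p = 2.74e-11), whereas Wisp2, known as Ccn5, stood at 132, 126 and 116 CPM in siCTL, 190.4, 178 and 208 with GSK126 and 525, 484 and 522 with siBcat and was higher (1.41 ± 0.07, adjusted p = 9.32e-09). Neither overlapped between siBcat and GSK126. Ankrd1 (-1.06 ± 0.14) and Ctgf, known as Ccn2 (-0.43 ± 0.06), were lower.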
